A study of Mus musculus with 4 samples.

Results

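The interferon pathway genes described here are 46 mouse genes, chosen by name: 18 that sense and transmit the signal (receptors, kinases, STATs, interferon regulatory factors and SOCS inhibitors) and 28 effectors, most of them interferon-stimulated genes. They were measured in unstimulated cells of 2 established mouse fibroblast lines, L929, which the submitters chose as a line sensitive to necrosis, and NIH3T3, chosen as a line sensitive to apoptosis, with 2 arrays per line and no treatment named for either. Total RNA was hybridised to Affymetrix Mouse Genome 430 arrays, on which several short probes together form a probe set that reads 1 transcript. A gene was read from probe sets annotated to it alone, and 44 of the 46 genes had one, with 77 probe sets in all, among 18193 genes on the array. Isg15 and Ifi44 had none. Because 1 line stands for each way of dying, a difference between them cannot be told apart from any other difference between the lines.

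Interferons are secreted proteins that cells release on infection. Type I interferons bind the receptor made of IFNAR1 and IFNAR2 and type II interferon the one made of IFNGR1 and IFNGR2, the kinases JAK1, JAK2 and TYK2 then phosphorylate STAT proteins, and STAT complexes with IRF9 switch on antiviral genes. Fibroblasts are classical producers of and responders to interferon, and L929 cells have long been used to titrate mouse interferon. Many effector genes also have a low basal level without added interferon.

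The unit is the MAS5 signal, an arbitrary brightness brought to the same trimmed mean on every array. No detection call was used, so a signal of 17.3, under which 40% of the scaled signals lie, stands for background. Signals of different probe sets are not on one scale, so each gene was compared only between the lines. As deposited, the NIH3T3 replicate 2 array was brighter, with a median of 38.3 against 23.5 to 24.0 on the other 3 arrays, and its factor was 0.726 against 1.07 to 1.14. Its spike-in controls averaged 1944 as deposited, against 2049 to 2174 on the others, and 1412 after scaling, against 2314 to 2453. After scaling, r between replicates over the tested probe sets was 0.982 in L929 and 0.981 in NIH3T3, and 0.835 to 0.844 between lines; probe sets are not independent, so this describes the arrays only. Of 8 fibroblast markers (Col1a1, Col1a2, Col3a1, Vim, Fn1, Sparc, Pdgfrb and Thy1) 8 lay above 17.3 on all 4 arrays, although Thy1 was at 18.0 and 30.0 in L929, against 2193 and 2253 in NIH3T3. Of 7 leukocyte markers with a probe set, Ptprc, Itgam and Cd3e lay at or under 17.3 on all 4 arrays, Cd68 and Csf1r lay above it on all 4, and Lyz2 and Tyrobp did so on both L929 arrays and 1 NIH3T3 array. The leukocyte signals summed to 178 to 203 in L929 and 180.0 to 197 in NIH3T3. Epcam and Krt8, but neither Cdh1 nor Krt18, of 4 epithelial markers lay above 17.3 on all 4 arrays, and 0 of the 4 endothelial markers (Pecam1, Cdh5, Kdr and Tek) did. Whether the 2 arrays of a line came from separate cultures is not stated in the labels, and the p-values therefore cover the spread between these arrays alone, which may be technical.

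Interferon genes were called in both directions between the lines. Oas1a, Ifnar2, Irf7, Bst2 and Ifngr2 were higher in L929, and Gbp2, Ifit2, Rtp4, Stat3 and Samd9l were lower. Of the 37 members tested, 10 were called, 5 higher and 5 lower, which is 27.0%, against 35.2% of the 12676 genes tested, where 17.4% were higher and 17.8% lower. Of all calls 49.5% were higher in L929, and 31.4% without scaling; with scaling and without NIH3T3 replicate 2 the share was 52.4%. A call needed an adjusted p under 0.05 over all genes in limma and a fold above 1.5, the thresholds the submitters name. The median log2 difference, L929 minus NIH3T3, was 0.00 over the tested members and 0.01 over all tested genes, and the median size of the difference was 0.50 and 0.46. Testing required a signal above 17.3 on both arrays of 1 line or of both, so a gene that passed through a single line was more likely to differ: 27 members passed in both lines, of which 3 were higher and 3 lower, 22.2% against 31.7% of all genes that passed in both. Irf7, Oas1a, Oas2 and Rsad2 passed through L929 alone, and Irf8, Ifit1, Gbp2, Gbp3, Rtp4 and Xaf1 through NIH3T3 alone. Without NIH3T3 replicate 2, 6 members were higher and 4 lower.

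**Figure D1:**
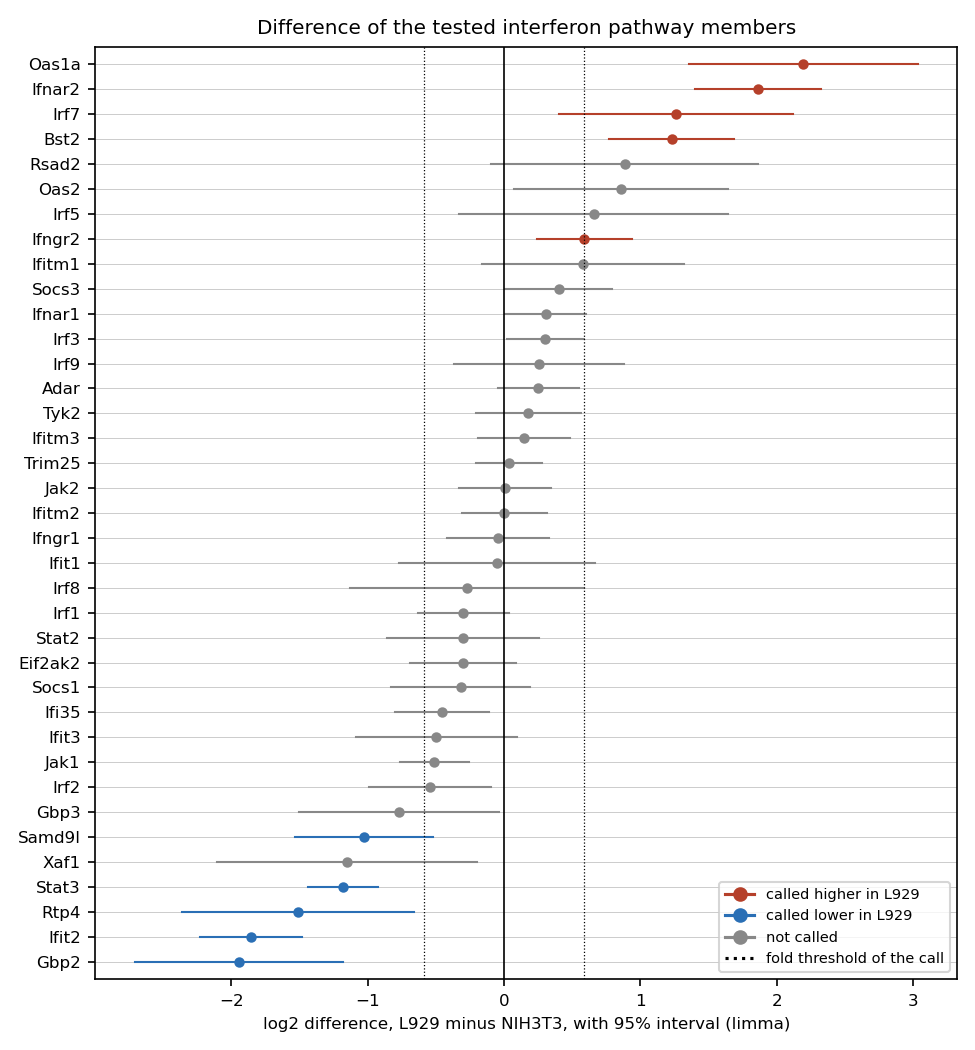
Log2 difference between L929 and NIH3T3 (x axis, L929 minus NIH3T3) of the 37 tested interferon pathway genes, with the 95% interval of the limma fit; colours mark genes called higher or lower in L929 and dotted lines the fold threshold. Oas1a at 2.20 and Gbp2 at -1.94 stand at the ends, and 27 genes are not called.

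All 4 receptor subunits were above background on all 4 arrays, against 56.4% of all genes. Of the 4 subunits 2 were called, both higher in L929, 50% against 35.2% of all genes. Ifnar2, the subunit that binds type I interferon with the higher affinity, measured 452 and 453 in L929 and 152 and 92.8 in NIH3T3. The lines did not overlap, and the NIH3T3 arrays were farther apart than the L929 arrays. The difference was 3.63-fold (log2 difference 1.86 ± 0.20 SE, limma adjusted p = 1.27e-04). This rests on the brightest of 3 Ifnar2 probe sets: the other two differed by 0.18 and 0.03 and were not called, and the mean of all 3 differed by 0.69 (adjusted p = 0.0199 in limma). On those probe sets the lines overlapped, with 52.2 and 81.3 in L929 and 61.1 and 52.7 in NIH3T3 on one, and 27.1 and 48.1 in L929 and 34.7 and 35.9 in NIH3T3 on the other. Probe sets of a gene can read different transcript forms, and which forms these read was not tested.

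Ifngr2, the signalling subunit of the type II receptor, measured 177 and 199 in L929 and 113 and 131 in NIH3T3, with no overlap. It passed the fold threshold narrowly, at 1.51-fold (log2 difference 0.59 ± 0.15 SE, limma adjusted p = 0.0129), and its other probe set differed by 0.17. Ifngr2 was no longer called without L929 replicate 2 (0.51, adjusted p = 0.0833), without NIH3T3 replicate 1 (0.49, with 0.0643), with no scaling (0.31) and with the mean of its probe sets (0.38), within a range of adjusted p of 0.00576 to 0.704 over 16 alternatives. The partner subunits were not called. Ifnar1 measured 212 and 236 in L929 and 184 and 174 in NIH3T3, without overlap (log2 difference 0.31, 95% interval 0.01 to 0.60). Ifngr1, the ligand-binding subunit of the type II receptor, measured 144 and 146 in L929 between the 133 and 168 of NIH3T3 (log2 difference -0.05, 95% interval -0.42 to 0.33).

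Among the kinases, 0 of 3 were called by limma, and 1, Jak1, had an unadjusted p under 0.05. Of all 12676 genes tested, 6733 had an unadjusted p under 0.05, to be set beside this count and the later ones. Jak1, which both receptor types use, measured 1011 and 939 in L929 and 1434 and 1353 in NIH3T3. The lines did not overlap and the adjusted p was 0.00542 in limma, but the log2 difference of -0.51 ± 0.11 SE, 1.43-fold lower, stayed under the fold threshold. Its 3 probe sets ran the same way, from -0.62 to -0.38, and the one at -0.62 passed both thresholds. Jak2, which pairs with IFNGR2, stood at 0.01 (95% interval -0.33 to 0.35), and Tyk2, which pairs with IFNAR1, at 0.18 (95% interval -0.21 to 0.57).

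Of the STATs, Stat3 was lower in L929. STAT3 carries signals of interleukin-6 type cytokines and is also activated by interferons. Its brightest probe set measured 362 and 388 in L929 and 805 and 919 in NIH3T3, well apart, a 2.27-fold difference (log2 difference -1.18 ± 0.11 SE, limma adjusted p = 6.25e-05). A second probe set differed by -0.92 and was also called. The other two, with signals of 11.1 to 46.3, differed by -0.01 and 0.55 and were not called, and with the mean of all 4 probe sets the difference was -0.39 and was not called. Stat2, which joins IRF9 in the complex that binds interferon-stimulated promoters, measured 43.7 and 39.2 in L929 and 48.8 and 57.2 in NIH3T3 (log2 difference -0.30, 95% interval -0.86 to 0.26).

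Of the 7 interferon regulatory factors 1 was called, 14.3% against 35.2% of all genes. Irf7, which drives type I interferon genes and is itself interferon-induced, measured 29.0 and 31.3 in L929 and 14.3 and 3.31 in NIH3T3. Both L929 arrays lay above the background level and both NIH3T3 arrays under it, so Irf7 was at least 1.75-fold higher in L929 (limma adjusted p = 0.0234). The call was lost without either L929 array or without NIH3T3 replicate 2 (log2 differences 0.77 to 1.31) and with no filter on dim probe sets, within a range of adjusted p of 0.0134 to 0.139 over 16 alternatives. Irf2, an antagonist of IRF1, measured 59.3 and 65.5 in L929 and 96.2 and 92.6 in NIH3T3, without overlap, but missed both thresholds (log2 difference -0.54, limma adjusted p = 0.0506).

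The other factors were not called. Irf1, an activator induced by type II interferon, stood at -0.30 (95% interval -0.63 to 0.03). Irf3, the constitutive factor that starts interferon production after virus sensing, stood at 0.30 (95% interval 0.02 to 0.59). Irf9, the DNA-binding subunit of the STAT complex, stood at 0.26 (95% interval -0.37 to 0.88). Irf5, best known from immune cells, measured 64.8 and 78.5 in L929, while the NIH3T3 arrays were at 22.1 and 76.0, so 1 array set its difference of 0.66. Without NIH3T3 replicate 2 it was called at 1.40, and without NIH3T3 replicate 1 it stood at -0.08. Irf8, a factor of myeloid and lymphoid cells, lay near the background level, at 24.1 and 8.28 in L929 and 20.1 and 19.1 in NIH3T3. Of the 7 leukocyte markers, Cd68 and Csf1r lay above the level on all 4 arrays, Lyz2 and Tyrobp on 3 of them, and Ptprc, Itgam and Cd3e on none. Their summed signals overlapped between the lines, while Cd68 was called lower and Lyz2 higher in L929. The part of such cells in the Irf8 signal was not tested.

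Neither SOCS inhibitor was called, and 1 of the 2, Socs3, had an unadjusted p under 0.05. Socs1, which blocks JAK kinases, measured 50.2 and 64.5 in L929 and 74.7 and 71.3 in NIH3T3 (log2 difference -0.32, 95% interval -0.83 to 0.19). Socs3, which restrains signalling through STAT3, measured 577 and 396 in L929 and 342 and 380 in NIH3T3 (log2 difference 0.40, 95% interval 0.01 to 0.79), and its 3 probe sets ran from 0.40 to 0.50. The 2 dimmer ones had limma adjusted p of 0.0283 and 0.0103 over all probe sets, but stayed under the fold threshold. Socs3 was called at 0.67 without L929 replicate 2 and stood at 0.13 without L929 replicate 1 (limma adjusted p = 0.0119 and 0.578). In all, 4 of 18 signalling genes were called, 22.2% against 35.2% of all genes, with 3 higher and 1 lower. Of the 18, 16 lay above the background level on all 4 arrays, 88.9% against 56.4% of all genes.

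**Figure D2:**
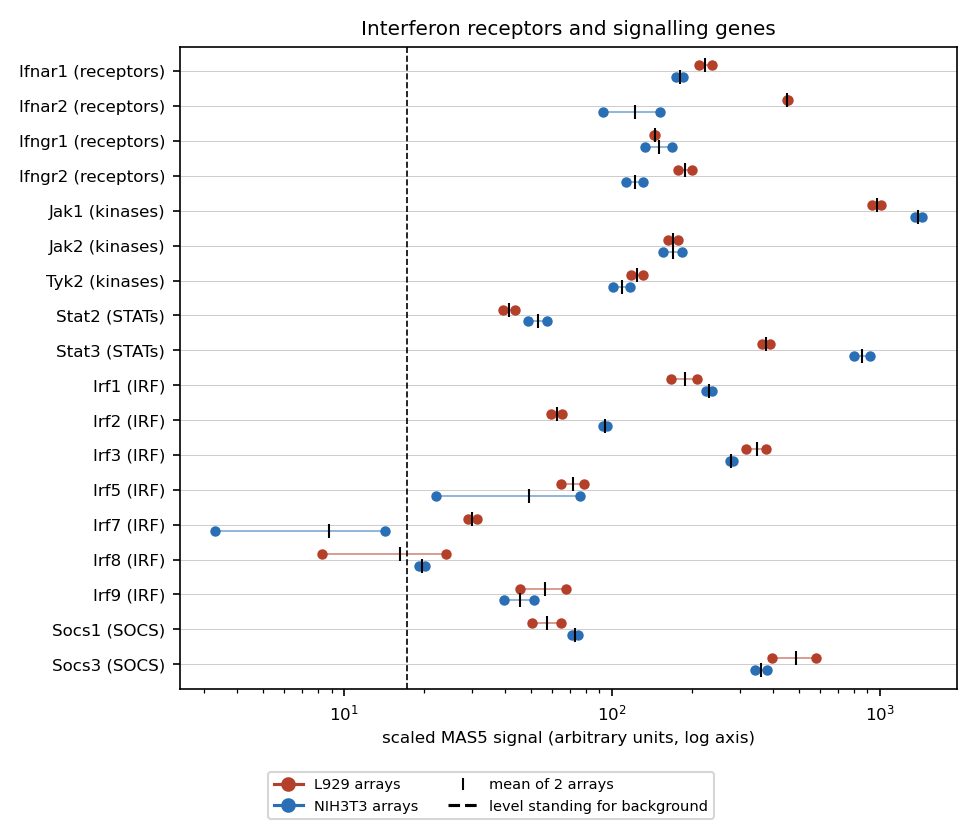
Scaled MAS5 signal (x axis, arbitrary units, log axis) of the 18 receptor and signalling genes, by their brightest tested probe set, on the 2 L929 and 2 NIH3T3 arrays, with the mean of each line as a tick and the background level of 17.3 as a dashed line. Signals are to be compared within a row: Ifnar2, Ifngr2 and Irf7 are higher in L929, Stat3 is lower, and Irf7 and Irf8 reach the background level.

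The effectors held more genes near background than the signalling genes. By their brightest probe set, 5 of the 26 effectors measured lay at or under 17.3 on all 4 arrays, 19.2% against 19.6% of all genes, and 0 of 18 signalling genes did. These 5 were Mx1, Mx2, Oas3, Oasl2 and Zbp1, and Usp18 and Ifih1 were also too dim to be tested. Only 11 effectors, 42.3%, lay above 17.3 on all 4 arrays, against 56.4% of all genes. Of the 19 effectors tested, 2 were higher and 4 lower, which is 31.6% called against 35.2% of all genes.

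The IFIT proteins bind foreign RNA and are among the most strongly interferon-induced proteins known. Ifit2 measured 99.6 and 136 in L929 and 416 and 469 in NIH3T3, well apart, a 3.62-fold lower level in L929 (log2 difference -1.85 ± 0.16 SE, limma adjusted p = 3.71e-05). It was called under all 16 alternatives run. Its neighbours in the family were not called. Ifit3 measured 35.5 and 29.8 in L929 and 53.6 and 45.2 in NIH3T3, without overlap (log2 difference -0.50, 95% interval -1.09 to 0.10). Ifit1 lay near background, at 29.0 and 16.5 in L929 and 22.5 and 23.9 in NIH3T3, and stood at -0.05 (95% interval -0.77 to 0.67).

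The IFITM proteins sit in membranes and block virus entry. By limma 0 of the 3 genes were called, and 0 had an unadjusted p under 0.05. Ifitm2 measured 3005 and 2950.2 in L929 and 3047 and 2897 in NIH3T3, and the arrays of the lines overlapped. Its difference of 0.00 had a 95% interval from -0.31 to 0.31. Ifitm3, the best studied member, measured 3271 and 2815 in L929 and 2603 and 2890 in NIH3T3, again overlapping (log2 difference 0.15, 95% interval -0.19 to 0.48). Ifitm1 measured 25.2 and 45.7 in L929 and 21.8 and 18.9 in NIH3T3, and its difference of 0.58 had a wide 95% interval from -0.16 to 1.32. These genes have close relatives, and whether a probe set also reads a relative was not tested.

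The oligoadenylate synthetases make a messenger that activates the antiviral nuclease RNase L. Oas1a measured 88.6 and 106 in L929 and 7.81 and 25.2 in NIH3T3. Both L929 arrays were far above the background level, and 1 of the 2 NIH3T3 arrays lay above it, with a mean of 16.5, so no fold is given. The log2 difference was 2.20 ± 0.37 SE (limma adjusted p = 0.00142), and it was called under all 16 alternatives. Oas1a belongs to a cluster of close copies, and whether its probe set reads them was not tested. Oas2 measured 24.8 and 39.8 in L929 and 18.8 and 9.79 in NIH3T3, without overlap and without a call (log2 difference 0.86, limma adjusted p = 0.0704). Oas3 and Oasl2 had signals of 0.974 to 6.73 and were not tested.

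The Mx proteins are GTPases that trap viral components, and most laboratory mouse strains carry a defective Mx1. Mx1 measured 13.7 and 13.5 in L929 and 4.30 and 4.95 in NIH3T3, under the background level throughout, and Mx2 measured 1.53 to 2.36 in L929 and 1.51 to 5.67 in NIH3T3. Neither was tested. Usp18, the protease that removes ISG15 and restrains the type I receptor, measured 7.27 and 0.761 in L929 and 18.4 and 12.8 in NIH3T3, with a single array above the level.

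The guanylate-binding proteins are GTPases induced mainly by type II interferon. Gbp2 measured 17.9 and 6.68 in L929 and 65.4 and 68.8 in NIH3T3. One L929 array lay just above the background level and the L929 mean of 12.3 under it, so no fold is given. The lines were far apart, and Gbp2 was lower in L929 (log2 difference -1.94 ± 0.33 SE, limma adjusted p = 0.00166). Its second probe set, under the level on both L929 arrays, was also called, at -1.36, and Gbp2 was called under all 16 alternatives. Gbp3 measured 10.7 and 5.21 in L929, under the level, and 17.6 and 20.1 in NIH3T3, just above it (limma adjusted p = 0.0806).

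Among genes that sense or act on double-stranded or Z-form nucleic acid, 0 of 3 tested were called by limma, and 0 had an unadjusted p under 0.05. Eif2ak2, the kinase PKR, which stops translation on binding double-stranded RNA, measured 90.4 and 96.8 in L929 and 121 and 114 in NIH3T3 (log2 difference -0.30, 95% interval -0.69 to 0.09). Its 3 probe sets ran from -0.67 to -0.07, and the one at -0.67 passed both thresholds (limma adjusted p = 0.0332 over all probe sets). Adar, which edits double-stranded RNA, stood at 0.25 (95% interval -0.05 to 0.55), and Trim25, a ubiquitin ligase of the RNA-sensing pathway, at 0.04 (95% interval -0.20 to 0.28). The RNA sensor Ifih1, or MDA5, was split within each line, at 28.2 and 3.62 in L929 and 2.59 and 19.9 in NIH3T3. Zbp1, the Z-nucleic acid sensor that can engage RIPK3, measured 14.4 and 7.06 in L929 and 2.67 and 4.60 in NIH3T3, under the background level on all 4 arrays.

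Of the remaining 6 effectors, 1 was higher and 2 were lower in L929, 50% called against 35.2% of all genes. Bst2, or tetherin, which holds budding virus at the cell surface, measured 138 and 161 in L929 and 51.7 and 67.3 in NIH3T3, well apart, 2.35-fold higher (log2 difference 1.23 ± 0.20 SE, limma adjusted p = 0.00123). With no scaling Bst2 was not called (0.96, adjusted p = 0.115), within a range of adjusted p of 2.58e-04 to 0.115. Samd9l, a restriction factor and growth inhibitor, measured 56.2 and 43.3 in L929 and 99.3 and 119 in NIH3T3, 2.04-fold lower (log2 difference -1.03 ± 0.22 SE, limma adjusted p = 0.00541). Rtp4, a receptor-transporting protein that is interferon-induced, measured 19.6 and 7.68 in L929 and 39.5 and 66.1 in NIH3T3. The lines did not overlap, and Rtp4 was lower in L929, where the mean of 13.7 lay under the background level (log2 difference -1.51 ± 0.37 SE, limma adjusted p = 0.0102). Rtp4 was not called when NIH3T3 replicate 2 was left out (-1.19, adjusted p = 0.0888), within a range of adjusted p of 5.26e-04 to 0.0888.

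The other three were not called. Xaf1, a pro-apoptotic partner of the inhibitor XIAP, measured 26.1 and 6.60 in L929 and 47.6 and 36.2 in NIH3T3, without overlap (log2 difference -1.15, limma adjusted p = 0.0502). It missed the threshold narrowly and was called under 7 of the 16 alternatives; without L929 replicate 1 it was called at -1.76, and without L929 replicate 2 it stood at -0.54. Ifi35, which binds NMI, measured 196 and 167 in L929 and 227 and 278 in NIH3T3, without overlap, at 1.37-fold lower, under the fold threshold (limma adjusted p = 0.0352), and 1 of its 3 probe sets, at -0.63, passed it. Rsad2, or viperin, measured 38.7 and 22.4 in L929 and 5.69 and 22.4 in NIH3T3, and its 2 tested probe sets pointed opposite ways, at 0.88 and -0.40. Rsad2 stood at 0.10 without L929 replicate 1 and was called at 1.46 without NIH3T3 replicate 2 (limma adjusted p = 0.869 and 0.037).

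**Figure D3:**
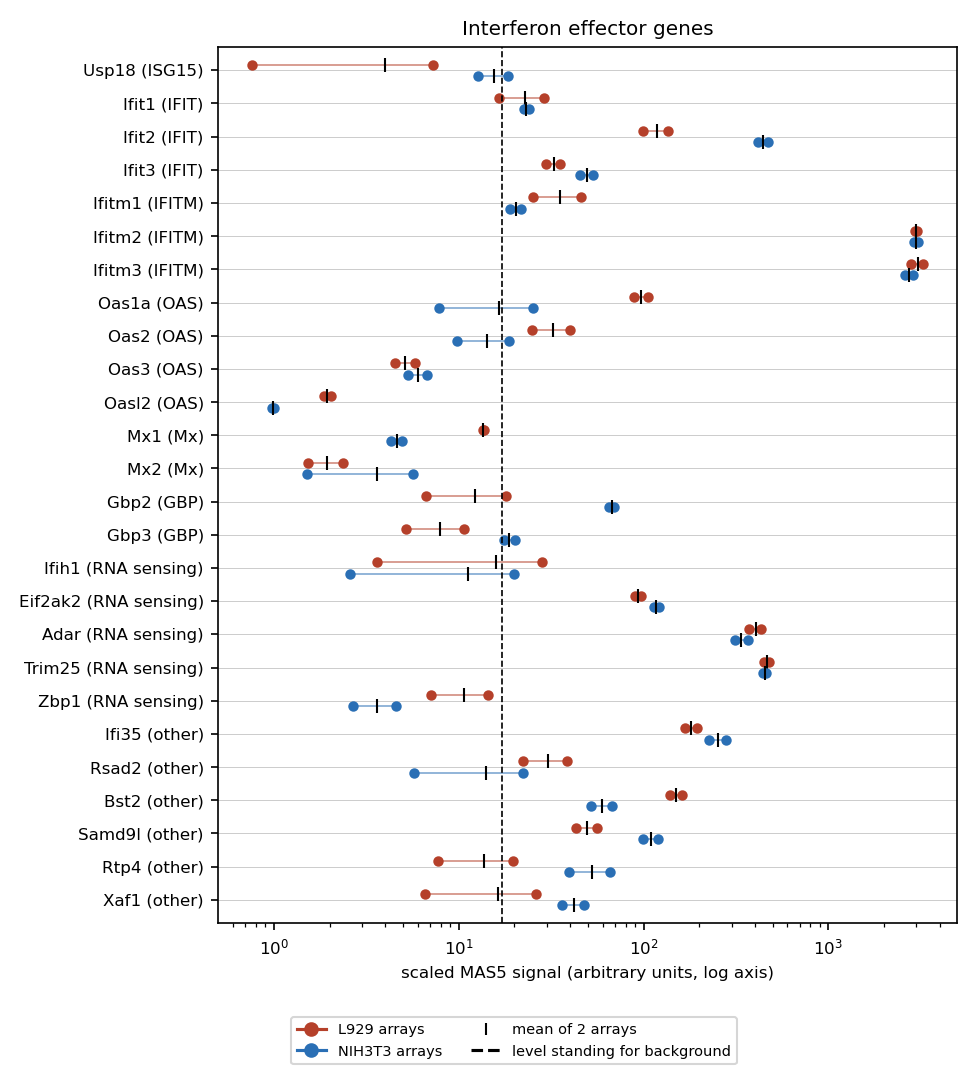
Scaled MAS5 signal (x axis, arbitrary units, log axis) of the 26 effector genes with a probe set of their own, on the 2 L929 and 2 NIH3T3 arrays, with the mean of each line as a tick and the background level of 17.3 as a dashed line. Within rows, Oas1a and Bst2 are higher in L929, and Ifit2, Gbp2, Samd9l and Rtp4 are lower; Oas3, Oasl2, Mx1, Mx2 and Zbp1 lie under the level throughout.

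Several tested probe sets were at hand for 15 members. In 11 of these they had the same sign, and in 4, Stat3, Irf3, Adar and Rsad2, they had both. For Irf3 and Adar the opposite values were -0.01 each.

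**Figure D4:**
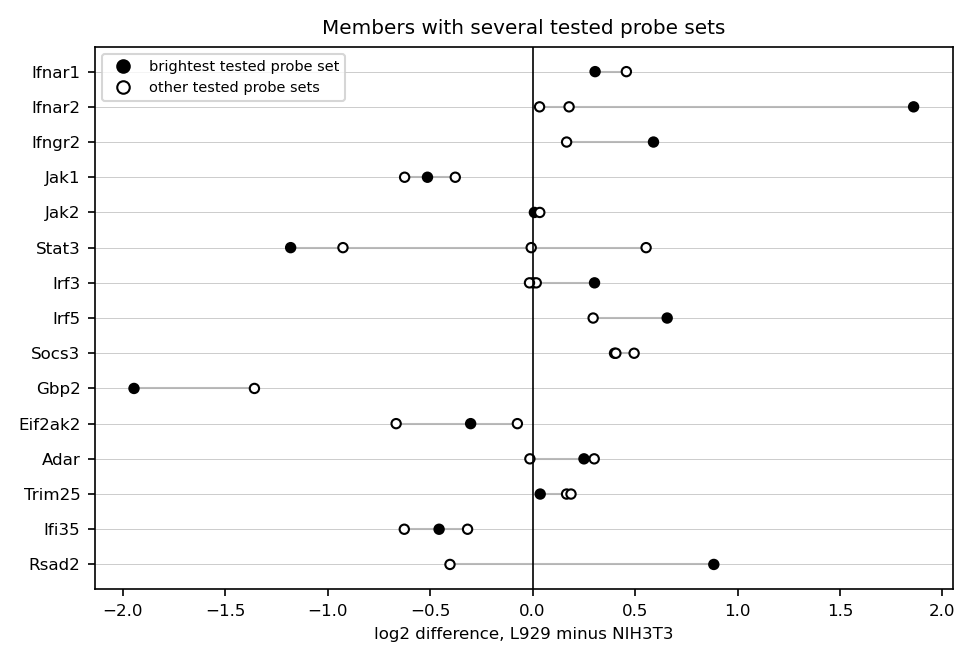
Log2 difference (x axis, L929 minus NIH3T3) of every tested probe set of the 15 members that had several; the filled point is the brightest probe set, used for the gene. The Ifnar2 points run from 0.03 to 1.86 and the Stat3 points from -1.18 to 0.55, while those of Jak1, Gbp2 and Ifi35 keep one sign.

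Promoter sequence was not used to choose the genes by name. Most effectors were chosen as interferon-stimulated genes, though, so the choice itself could raise their share of interferon motifs. The interferon-stimulated response element has a core of GAAA, then 2 bases of any kind, then GAAA, and is bound by STAT and IRF complexes. Windows from 250 bases before to 50 after each gene's start were searched on both strands, with overlapping matches counted once per gene; the sequences are from RefSeq, build GRCm38.p6, and 40 of the 46 members had one. The core was found for 16 of these 40, against 3.99% of the 27025 genes of the table. It was found for 13 of 22 effectors and 3 of 18 signalling genes. The gamma-activated site core TTCNNNGAA, a STAT dimer motif, was found for 13 of the 40, against 9.55% of all genes. The response element core was present for 2 of 5 genes higher in L929 (Oas1a and Bst2), for 1 of 4 lower in L929 (Gbp2), and for 10 of 26 tested and not called. A match is a description of letters and not a measured site.

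Printed next are the 160 bases just before the start of 5 such genes, as examples of effectors that carry the core and were higher (Oas1a, Bst2), lower (Gbp2) or not called (Ifit1, Ifitm2). Each is written 5′ to 3′ on the gene's strand, with response element cores in capitals.
Oas1a, chr5:120907526-120907685, minus strand: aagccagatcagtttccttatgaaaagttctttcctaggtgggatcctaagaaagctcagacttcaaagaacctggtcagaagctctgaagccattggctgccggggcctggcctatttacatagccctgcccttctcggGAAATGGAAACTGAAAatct
Bst2, chr8:71537473-71537632, minus strand: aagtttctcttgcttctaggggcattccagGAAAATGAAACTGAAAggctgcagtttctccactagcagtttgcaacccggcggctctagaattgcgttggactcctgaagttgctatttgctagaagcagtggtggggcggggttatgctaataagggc
Gbp2, chr3:142620503-142620662, plus strand: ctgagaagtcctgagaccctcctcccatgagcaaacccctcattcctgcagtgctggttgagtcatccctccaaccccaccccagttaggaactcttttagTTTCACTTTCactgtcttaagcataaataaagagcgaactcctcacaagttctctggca
Ifit1, chr19:34640729-34640888, plus strand: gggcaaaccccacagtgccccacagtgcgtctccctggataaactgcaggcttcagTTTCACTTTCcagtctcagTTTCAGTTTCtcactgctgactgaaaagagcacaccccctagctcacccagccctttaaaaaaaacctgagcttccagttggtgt
Ifitm2, chr7:140955962-140956121, minus strand: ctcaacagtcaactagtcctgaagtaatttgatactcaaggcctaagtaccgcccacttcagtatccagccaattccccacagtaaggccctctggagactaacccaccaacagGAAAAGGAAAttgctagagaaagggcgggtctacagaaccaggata

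In Oas1a and in Bst2 a pair of overlapping cores forms one run of 16 capitals, and in Bst2 a gamma-activated site core overlaps the run. Ifit1 holds a pair of separate cores in the opposite orientation, as does Gbp2 with a single one. Ifit2, which had the lowest p of the members, has 2 windows in the table, and neither holds the letters of the response element core.

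A wider list of 90 interferon genes was read from the same fit to set the members beside the rest of the pathway. Of these, 83 had a probe set of their own and 61 were tested. In L929, 19 of the 61 were higher and 10 lower, 47.5% called against 35.2% of all genes. The list was chosen with earlier results of these data known. Whether the choice raised this share, or those of its parts given below, was not tested. Genes that passed the filter through a single line were more often called. Over all genes, 48.4% of those passing through L929 alone and 52.2% of those through NIH3T3 alone were called, against 31.7% passing in both. Among the called genes of the list, Psmb8, Nlrc5, Slfn8, Slfn2 and Trim30a passed through L929 alone. Ddx58 and Ifi27l2a passed through NIH3T3 alone. Others are not named here. The median log2 difference of the list was 0.19. The genes of the interferons themselves lay near background. Of the 4 ligand genes, 0 were tested: Ifna2, Ifna4 and Ifng lay under 17.3 on all 4 arrays, and Ifnb1, which encodes interferon beta, was split within each line, at 15.0 and 32.0 in L929 and 30.2 and 11.9 in NIH3T3.

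Antigen processing genes, many of them induced by type II interferon, were called in 6 of 10 tested, 60% against 35.2% of all genes. In L929, 5 were higher and 1 lower, with a median log2 difference of 0.51. Of the called genes, Psmb8 and Nlrc5 passed the filter through L929 alone. Of all genes that passed so, 48.4% were called. Psmb8, an immunoproteasome subunit, measured 113 and 89.4 in L929 and 4.39 and 3.16 in NIH3T3. The NIH3T3 arrays lay under the background level, so it was at least 5.82-fold higher in L929 (limma adjusted p = 3.89e-05). Nlrc5, the transactivator of MHC class I genes, measured 67.0 and 89.1 in L929 and 11.7 and 4.87 in NIH3T3, at least 4.48-fold higher (adjusted p = 3.95e-04). Psmb9, the partner subunit of Psmb8, was 2.62-fold higher, the peptide transporter gene Tap1 2.47-fold, and B2m, the light chain of MHC class I, 1.77-fold. The B2m call was lost without either L929 array and without scaling (range of adjusted p 4.63e-04 to 0.0928 over 16 alternatives), and the Tap1 call without scaling. Psme1, a subunit of the proteasome activator that interferon induces, ran the other way, at 263 and 263 in L929 and 613 and 624 in NIH3T3, 2.31-fold lower (adjusted p = 3.24e-05).

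The other interferon-stimulated genes of this list were also called in both directions: 11 were higher and 7 lower in L929 among 37 tested of 58 listed, 48.6% against 35.2% of all genes, and the median was 0.02. Lgals3bp, a secreted galectin-binding glycoprotein, measured 589 and 585 in L929 and 91.6 and 106 in NIH3T3, 5.58-fold higher (limma adjusted p = 1.6e-06). Ifi30, a lysosomal thiol reductase of antigen processing, was 3.38-fold higher and the Schlafen gene Slfn2 2.70-fold, with 1 of 2 NIH3T3 arrays above the background level, and Slfn8 was at least 1.63-fold higher. Trim30a measured 59.1 and 68.3 in L929 and 17.8 and 3.68 in NIH3T3, and was higher in L929 (log2 difference 2.04, adjusted p = 0.00306). On the other side stood Ddx58, the RNA sensor RIG-I, at 28.9 and 16.6 in L929 and 113 and 84.5 in NIH3T3, 3.51-fold lower in L929, with 1 of 2 L929 arrays above the level (adjusted p = 0.00114). Apobec3, a cytidine deaminase that restricts retroviruses, was 3.27-fold lower, Nmi, the partner of IFI35, 2.74-fold and the RNA helicase Mov10 2.19-fold, and Ifi27l2a was at least 1.40-fold lower.

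Of 5 further STAT and IRF genes tested, 2 were higher and 2 lower in L929, and of 9 other inhibitors 1 was called, 80% and 11.1% against 35.2% of all genes. Stat5a, which carries signals of cytokines and growth hormone, measured 251 and 236 in L929 and 28.5 and 30.3 in NIH3T3, 6.73-fold higher in L929 (limma adjusted p = 7.54e-06). Its close relative Stat5b was 1.53-fold higher, a call lost without L929 replicate 1 (0.51, adjusted p = 0.0724), without NIH3T3 replicate 1 (0.49, adjusted p = 0.0589) and without scaling, within a range of adjusted p of 0.00135 to 0.687 in limma. Socs2, an inhibitor that acts on growth hormone and STAT5 signalling, measured 412 and 386 in L929 and 83.5 and 69.3 in NIH3T3, 4.84-fold higher (adjusted p = 5.9e-06); its tested probe sets ran from 0.22 to 2.42. Irf2bp1 and Irf2bp2, corepressors that bind IRF2, were 1.51-fold and 1.76-fold lower. The Irf2bp1 call was lost under 5 of 16 alternatives, among them without L929 replicate 1 and without NIH3T3 replicate 2 (-0.57 and -0.54), and the Irf2bp2 call without NIH3T3 replicate 2 (-0.57) and with the mean of its 4 tested probe sets (-0.34), which ran from -0.82 to 0.41.

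**Figure D5:**
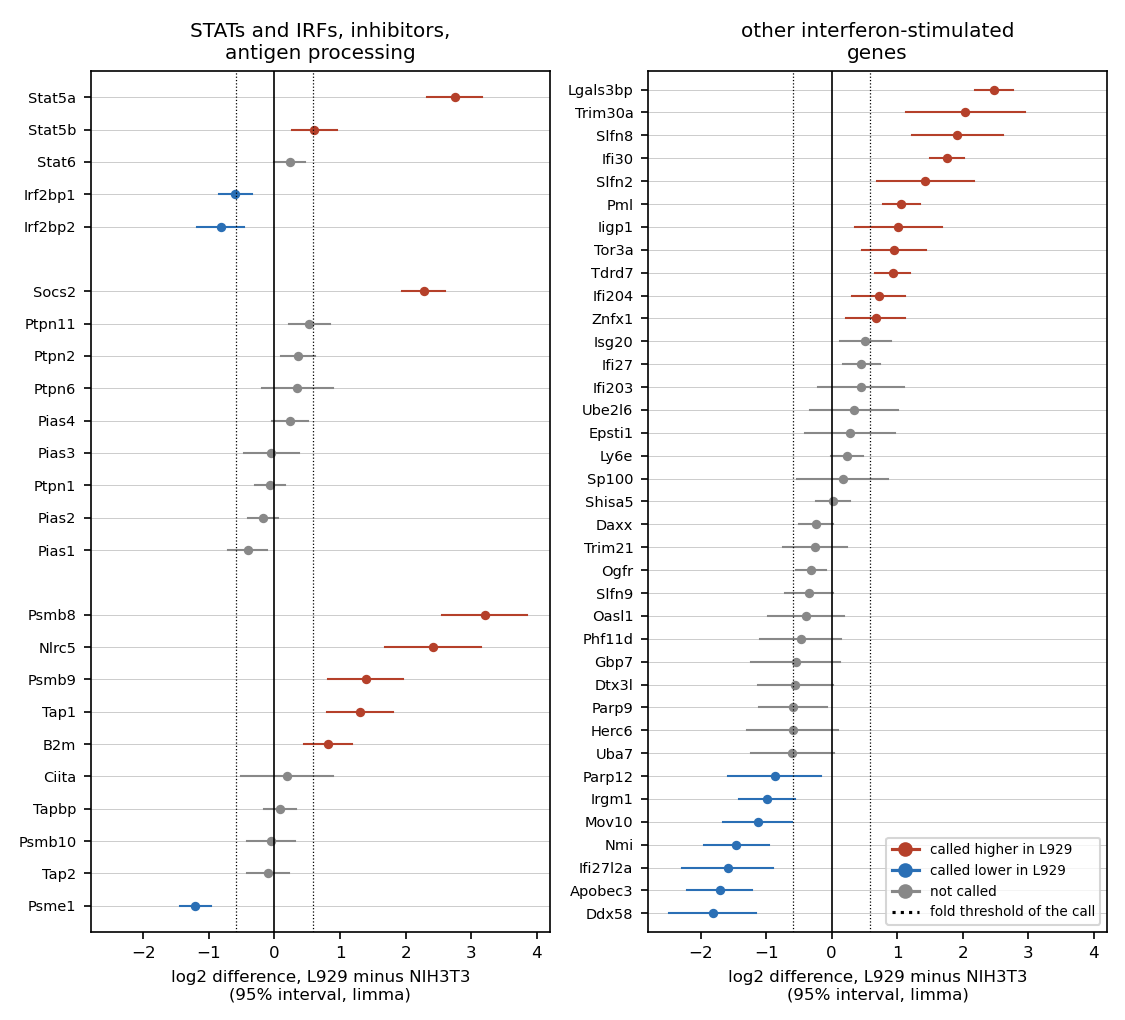
Log2 difference (x axis, L929 minus NIH3T3) with its 95% interval for the 61 tested genes of the wider interferon list, in blocks of STATs and IRFs, inhibitors and antigen processing genes (left) and other interferon-stimulated genes (right). Psmb8, Stat5a, Lgals3bp and Nlrc5 stand highest and Ddx58 and Apobec3 lowest; 32 genes are not called.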

How the data were processed

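RNA from L929 and NIH3T3 cells without stimulation was hybridised to 2 arrays per line. The authors deposited intensity values, 1 for each probe set of an array, made with MAS5 per the submitters' processing notes. Its version, its scaling target and a genome build were not given in the sources used here. Samples were grouped by title. The members and gene lists were chosen with earlier results of these data known.

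Of 45037 probe sets that are not controls, 34945 had 1 gene symbol, 932 several and 9160 none in the platform annotation, and only the first were named; 34741 of their identifiers were found in a gene table of GRCm38.p6, which changed 0 symbols. Arrays were scaled to a common trimmed mean leaving out 2% at each end, an offset of 8.01, the 25th percentile, was added, and log2 was taken, so folds of dim genes are understated. The 27438 probe sets that exceeded 17.3 on both arrays of 1 line or both were tested with lmFit and eBayes of limma 3.58.1 (R 4.3.3), a mean-variance trend and two-sided tests. A gene was read from its brightest tested probe set, and p-values were Benjamini-Hochberg adjusted over 12676 genes. Where a line lay under 17.3 on both arrays, the fold is a bound ("at least") against 17.3, and where only its mean did, no fold is given. Such a bound has no interval and would change with the level chosen. The number of arrays limits the precision. All members are named; of the wider list, up to 5 called genes per direction and sub-list and every ligand. The procedure was tested on simulated data. Alternatives changed the scaling, offset, filter, variance model, probe set choice, adjustment and replicates.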

Additional observations from a re-analysis of the deposited data

How the results depend on the processing

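The 10 called members kept their sign under all 16 alternatives, and Ifnar2, Ifit2, Oas1a, Gbp2 and Samd9l kept their call under all 16. Calls were lost for Ifngr2 and Irf7 under 4 alternatives each and for Stat3, Bst2 and Rtp4 under 1 each. Without scaling, the median of all genes moved to -0.26, against 0.01 as reported, 31.4% of all calls were higher against 49.5%, and fewer genes were called higher in L929: 3 members, 1 effector, 10 genes of the wider list and 839 genes in all. The signalling genes called lower numbered 2 with an offset of 1, where Irf2 was added, and 0 with the mean of all tested probe sets, where Stat3 was lost. With the median signal as the background level, 8 members lay under it on all 4 arrays, against 5. Leaving out 1 array gave 4 to 6 members higher and 4 to 6 lower; a line left with 1 array is assumed there to vary like the other. Some members that were not called changed sign, none beyond 0.28 in size. Without scaling, log2 differences were -0.27 for Jak2, -0.0935 for Tyk2, -1e-04 for Irf9, -0.28 for Ifitm2, -0.14 for Ifitm3, -0.03 for Adar and -0.25 for Trim25; relative to the shifted median they were -0.0012, 0.17, 0.26, -0.02, 0.12, 0.23 and 0.02. With quantile normalization they were 0.039 for Ifngr1, 0.0019 for Ifit1 and -0.0753 for Ifitm2, and with median scaling 0.0146 for Ifngr1. Leaving out 1 array at a time gave ranges of -0.21 to 0.12 for Ifngr1, -0.11 to 0.12 for Jak2, -0.0824 to 1.40 for Irf5, -0.76 to 0.22 for Irf8, -0.35 to 0.25 for Ifit1, -0.0331 to 0.0397 for Ifitm2, -0.26 to 0.16 for Eif2ak2 and -0.0049 to 0.0798 for Trim25. For Eif2ak2 another probe set became the brightest when L929 replicate 2 was left out. The cause of the other sign changes was not tested. Same-numbered arrays did not deviate together (r = 0.01 between their deviations from the line means). With 2 arrays per line this cannot settle whether the numbers pair the samples, and the labels name no pairing. With the replicate number as a block, 5 members were higher and 6 lower, with Xaf1 added. Dim signals limit what could be tested: 7 of the 44 members measured were too dim. The other 37 members were tested, beside 12676 of all 18193 genes, a smaller share.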

Other observations

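Isg15, the ubiquitin-like protein that marks other proteins during the interferon response, had no probe set of its own. One probe set is annotated to both Isg15 and the predicted gene Gm9706, and which transcript it read is unknown. It measured 33.1 and 23.9 in L929 and 56.5 and 86.6 in NIH3T3, without overlap between the lines. Its log2 difference, L929 minus NIH3T3, was -1.11, with a limma adjusted p of 0.0161 over all probe sets tested.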
